A study of Rattus norvegicus with 10 samples.

Results

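Transcripts of 9 genes of the amyloid precursor family and of the secretases that cut its proteins were followed in the left hippocampus of 10 male transgenic rats. The genes were taken by symbol from a table of 17168 genes: the precursors App, Aplp1 and Aplp2, the beta-secretase Bace1, the gamma-secretase subunits Psen2, Ncstn, Aph1a and Psenen, and the alpha-secretase Adam10. All 9 were in the table, and all 9 passed the filter on low counts that left 12161 genes.

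All the rats were TgF344-AD, a Fischer line used as a model of Alzheimer's disease, and all were 11 months old. The untreated group held 5 rats on plain rodent chow. The RG2833 group held 5 rats whose chow carried 750 mg of RG2833 per kg, given from 5 months of age for 6 months. RG2833 inhibits the histone deacetylases HDAC1 and HDAC3, which remove acetyl groups from histones, and the study asked what it does to hippocampal gene expression. A sentence of the design text names ibudilast as the drug, whereas the treatment label of each rat and the title name RG2833, which was followed. The rats of both groups are APP/PS1 transgenic, PS1 being a presenilin. Their human APP transgene has changes that cause familial disease and is under the mouse prion promoter. Whether reads of this transgene were counted under the rat App gene is not given in the sources used here. No wild-type and no female rats are part of the comparison. Each library is a single rat, and the text names libraries by group and replicate number.

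App is a membrane protein, and Aplp1 and Aplp2 are its paralogs. Adam10 cuts App within the amyloid-beta sequence, so that the peptide cannot form. Bace1 instead cuts at the start of that sequence, and the membrane stub it leaves is cut by gamma-secretase, which frees amyloid-beta. Gamma-secretase is a complex of a presenilin, which holds the catalytic site, with nicastrin (Ncstn), an Aph1 protein and Pen-2 (Psenen). Aplp1 and Aplp2 are cut by the same kinds of enzyme but hold no amyloid-beta sequence.

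Bace1 and Adam10 stand for the competing first cuts of App, and the stretch before the start site of each is shown. Their fold changes below had opposite signs, and neither passed the test. Both sequences are the 250 bases upstream of the RefSeq start in the GRCr8 assembly, on the plus strand, at chr8:55038592-55038841 for Bace1 and chr8:80226612-80226861 for Adam10. Capitals mark matches on either strand to GGGCGG, the core letters of the GC box bound by Sp1-type factors.

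Bace1 promoter: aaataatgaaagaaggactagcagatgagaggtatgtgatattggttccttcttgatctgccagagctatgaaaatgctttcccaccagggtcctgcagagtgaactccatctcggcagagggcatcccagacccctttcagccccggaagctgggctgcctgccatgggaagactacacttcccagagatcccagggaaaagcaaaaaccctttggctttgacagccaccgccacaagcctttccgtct

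Adam10 promoter: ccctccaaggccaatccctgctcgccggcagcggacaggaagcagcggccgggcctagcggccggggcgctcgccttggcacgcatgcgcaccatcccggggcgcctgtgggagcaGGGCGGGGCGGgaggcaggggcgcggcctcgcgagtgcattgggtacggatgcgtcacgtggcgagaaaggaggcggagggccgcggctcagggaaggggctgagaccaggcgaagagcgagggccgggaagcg

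The Adam10 stretch held 30 CpG dinucleotides and the Bace1 stretch 4, against a median of 5 over 33469 RefSeq windows of the same length. GGGCGG matched at 2 overlapping places in Adam10 and at 0 in Bace1, and 30.5% of all windows held at least 1 match. All 9 genes had a window in the table. App, with 32 CpG, had more than 95.9% of all windows, and Aplp1 had 27. GGGCGG was found in 6 of the 9 windows, with 5 matches in Aplp2. TATAAA, searched on both strands, was in 0 of the 9 and in 12.9% of all windows. CCAAT matched only in Aph1a (3 matches), Aplp2 (2), Adam10 (2) and Bace1 (1), and in 34.0% of all windows. These are descriptions of letters in a window. No binding was measured, and no link of these letters to the fold changes was tested.

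App transcripts showed the widest spread from rat to rat of the 9 genes and no difference between groups beyond it. In CPM (reads of a gene per 1000000 scaled reads of its library), App stood at 2863, 2471, 1619, 2296 and 2505 in untreated replicates 1 to 5 and at 2496, 2311, 2423, 1909 and 1840 in RG2833 replicates 1 to 5. Untreated replicate 3 was the lowest of all and untreated replicate 1 the highest, so that all 5 treated values lay inside the untreated range. The group means were 2351 ± 458 and 2196 ± 302 CPM (SD, n = 5 each). Their log2 fold change, RG2833 minus untreated, was -0.10 with a standard error of 0.15, and its 95% interval corresponded to 0.739-fold to 1.18-fold (edgeR adjusted p = 0.958). Leaving out untreated replicate 1 brought the value to -0.0176 and leaving out untreated replicate 3 to -0.205, and neither passed.

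Aplp1, a paralog found mostly in neurons, stood at 1690, 1623, 1471, 1722 and 1880 CPM in untreated rats and 1631, 1630, 1526, 1464 and 1594 CPM in RG2833 rats. All 5 treated rats lay below the untreated mean of 1677 ± 149 CPM, yet 4 of them lay inside the untreated range. The log2 fold change was -0.10 (SE 0.08, edgeR adjusted p = 0.915, 95% interval 0.825-fold to 1.06-fold). It was -0.0508 without untreated replicate 5, the highest rat.

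Aplp2, a paralog expressed in most tissues, varied least. It ran from 563 to 623 CPM in untreated rats (583, 623, 564, 596 and 563) and from 567 to 625 CPM in RG2833 rats (625, 584, 580, 586 and 567). The 2 ranges were nearly the same. The log2 fold change was 0.01 (SE 0.06, edgeR adjusted p = 0.996), and the 95% interval ran from 0.916-fold to 1.10-fold. Within groups the SD of log2 CPM was 0.06 for Aplp2, 0.10 for Aplp1 and 0.26 for App. Of the 476 genes within 1 log2 unit of Aplp2's level, 2.31% had a smaller SD. Of the 76 genes that near to App, 60.5% did, so App's spread was not unusual for a transcript of its level.

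**Figure D1:**
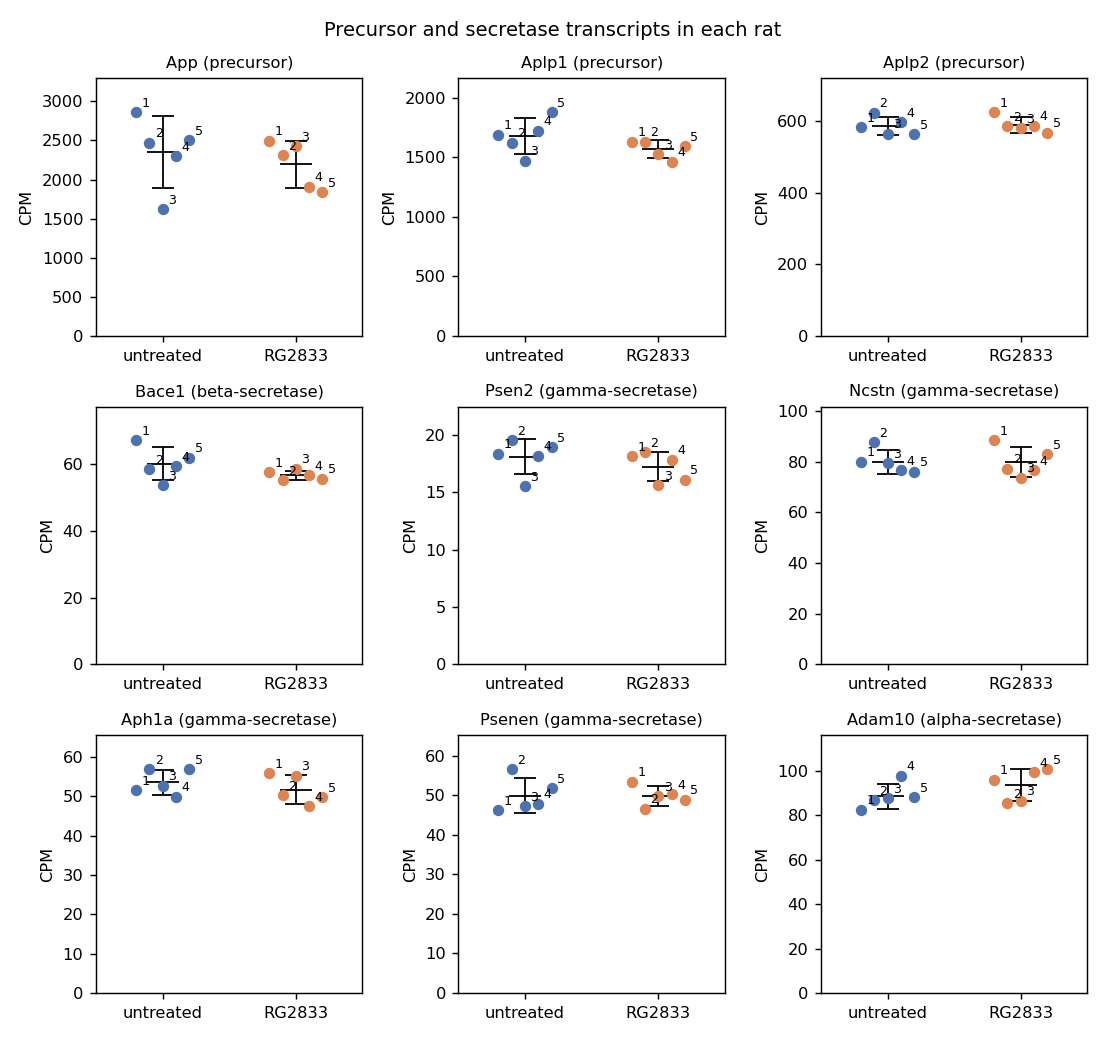
CPM of each of the 9 genes in each rat; points are rats, labelled with their replicate number, and bars give the mean and SD of 5 rats. The groups overlap in every panel, and App shows the widest scatter, from 1619 to 2863 CPM.

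Bace1, the enzyme whose cut begins amyloid-beta formation, stood at 66.9, 58.3, 53.5, 59.2 and 61.8 CPM in untreated rats and at 57.4, 55.1, 58.5, 56.5 and 55.5 CPM in RG2833 rats. The treated rats fell in a narrow band inside the untreated range, all 5 below the untreated mean of 60 ± 4.91 CPM. The SD was 1.35 CPM in RG2833 rats; the difference in spread was not tested. The log2 fold change was -0.08 (SE 0.06, edgeR adjusted p = 0.901), with a 95% interval of 0.858-fold to 1.04-fold. Without untreated replicate 1, the highest rat, it was -0.0402.

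Adam10, the main alpha-secretase of neurons, had a higher mean in RG2833 rats, a difference that did not pass the test. Untreated rats had 82.5, 86.7, 87.6, 97.8 and 88.1 CPM, and RG2833 rats had 96, 85.3, 86.7, 99.5 and 101 CPM. Of the treated rats, 2 exceeded the highest untreated rat and none fell below the lowest. The means were 88.5 ± 5.63 and 93.7 ± 7.25 CPM, a log2 fold change of 0.08 (SE 0.07, edgeR adjusted p = 0.914, 95% interval 0.952-fold to 1.18-fold).

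The ratio of Bace1 to Adam10 counts within a rat does not depend on how libraries are scaled. Its relation to the mix of cells in the tissue was not tested. The log2 ratio was -0.30, -0.57, -0.71, -0.72 and -0.51 in untreated rats and -0.74, -0.63, -0.57, -0.82 and -0.86 in RG2833 rats. The 3 lowest values were treated rats (replicates 5, 4 and 1), and the highest was untreated replicate 1. The mean was lower in RG2833 rats by 0.16 (-0.72 ± 0.12 against -0.56 ± 0.17, n = 5 each), with an exact permutation p of 0.135 over the 252 ways to divide the rats (two-sided, adjusted p = 0.540 over 4 ratios), so the difference did not pass. The smallest p this design can give is 0.00794. Without untreated replicate 1 the difference was -0.0938.

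Among the gamma-secretase subunits, Psen2, one of the presenilins, had 18.4, 19.5, 15.5, 18.2 and 18.9 CPM in untreated rats. RG2833 rats had 18.1, 18.5, 15.6, 17.9 and 16.1 CPM, so both groups spanned nearly the same range. The log2 fold change was -0.07 (SE 0.08, edgeR adjusted p = 0.939), and it ran from -0.0362 without RG2833 replicate 3 to -0.12 without untreated replicate 3. Psen2 rested on the fewest reads of the 9 genes, 233 to 381 per library.

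Nicastrin (Ncstn), which recognises substrates for the complex, stood at 79.98, 87.6, 79.3, 76.7 and 76.1 CPM in untreated and 88.4, 77.2, 73.7, 76.7 and 83.0 CPM in RG2833 rats. Its group means, 79.9 ± 4.59 and 79.8 ± 5.86 CPM, differed least of the 9 genes (edgeR adjusted p = 0.997, log2 fold change -0.0026, SE 0.07). Aph1a, a scaffold subunit, ranged from 49.9 to 57.0 CPM in untreated and from 47.5 to 55.9 CPM in RG2833 rats. Its log2 fold change was -0.05 (edgeR adjusted p = 0.946, SE 0.07), and it ran from -0.0189 without RG2833 replicate 4 to -0.0808 without RG2833 replicate 1. Psenen, which activates the presenilin, ranged from 46.2 to 56.7 CPM and from 46.6 to 53.4 CPM. Its log2 fold change was -0.0051 (edgeR adjusted p = 0.996, SE 0.07). Over these 3 subunits the 95% intervals lay between 0.872-fold and 1.11-fold. The log2 ratio of Psen2 to the mean of the other 3 subunits was -1.72 ± 0.11 in untreated and -1.77 ± 0.13 in RG2833 rats (exact permutation p = 0.524, adjusted p = 0.762). The difference of -0.05 ran from -0.0155 without RG2833 replicate 3 to -0.0947 without untreated replicate 3.

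**Figure D2:**
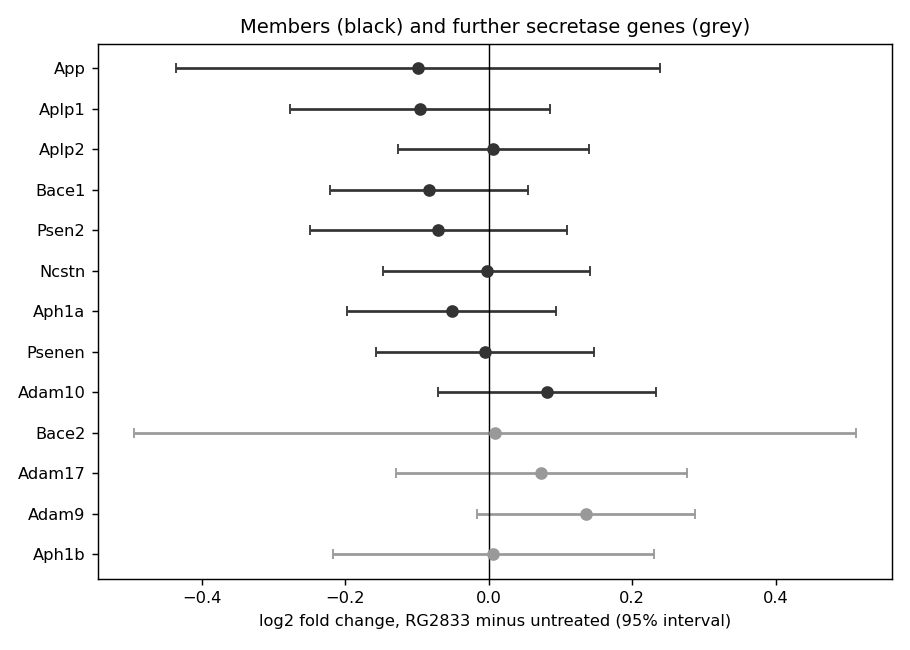
Log2 fold change of RG2833 minus untreated for the 9 genes (black) and 4 further secretase genes (grey), with 95% intervals from edgeR's quasi-likelihood fit. Every interval includes 0, and those of Bace2 and App are the widest.

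Of the 9 genes, 0 passed at an adjusted p under 0.05 and 0 had an unadjusted p under 0.05. Over all 12161 genes the same counts were 0 (0%) and 688 (5.66%). The 2 groups overlapped for each of the 9 genes, and over all genes they did not overlap for 1.00%. Mean expression was lower in RG2833 for 7 and higher for 2, while 46.5% of all genes tested were higher. The median log2 fold change of the 9 was -0.05, against -0.01 over all genes tested. DESeq2 called 7 genes over the whole table (0.0576%) and none of the 9. In limma-voom with sample weights, Aplp1 (-0.147) and Bace1 (-0.119) had an unadjusted p under 0.05, as did 1263 of all genes (10.4%). Neither passed (limma adjusted p = 0.477 and 0.471). The same fit put Adam10 at 0.0373, against 0.08 in edgeR. For 8 of the genes the intervals ended between 0.825-fold and 1.18-fold, and App's reached down to 0.739-fold.

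App relative to its paralogs is shown because the ratio cancels library scaling. The log2 ratio of App to Aplp2 counts was 2.30, 1.99, 1.52, 1.95 and 2.15 in untreated rats and 1.998, 1.98, 2.06, 1.70 and 1.70 in RG2833 rats. Untreated replicate 3 and RG2833 replicates 4 and 5 were at the bottom, as for App itself, since Aplp2 varied little. The group difference was -0.09 (exact permutation p = 0.571, adjusted p = 0.762). Dropping untreated replicate 1 brought this ratio's difference to -0.0129, and dropping untreated replicate 3 to -0.207 (exact permutation p = 0.151). The ratio of App to Aplp1 differed by 0.0079 (exact permutation p = 0.960), and its sign changed when single rats were left out.

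**Figure D3:**
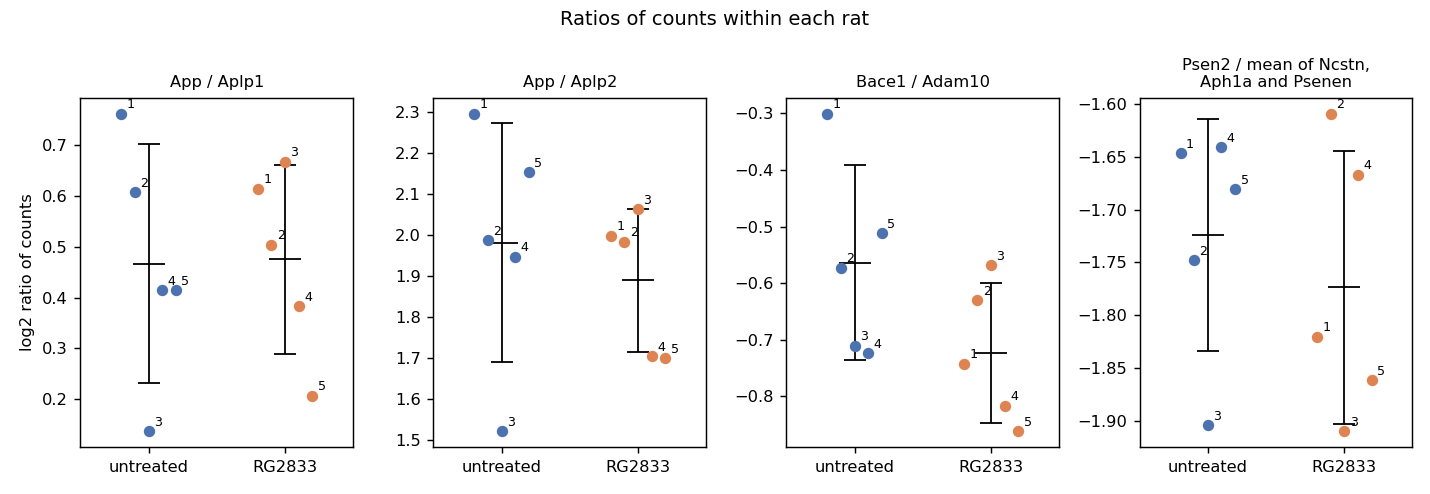
Log2 ratios of counts within each rat, with the mean and SD of 5 rats per group; numbers are replicates, and the vertical axes do not start at 0. The groups overlap in all 4 panels; in Bace1 to Adam10, RG2833 replicates 4 and 5 lie lowest.

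None of 4 further secretase genes passed the test of treatment. Adam9 and Adam17, further metalloproteases with alpha-secretase activity, had log2 fold changes of 0.13 (SE 0.07, edgeR adjusted p = 0.841) and 0.07 (SE 0.09, 0.946). Leaving out untreated replicate 1 brought Adam17 to 0.0188, leaving out RG2833 replicate 4 to 0.0197, and leaving out untreated replicate 3 to 0.129. All 5 RG2833 values of Adam9, 61.7 to 70.2 CPM, lay above the untreated mean of 58.4 CPM, and the groups overlapped. Adam9 had an unadjusted p under 0.05 in limma-voom, without untreated replicate 2 and without the 2 libraries rich in choroid plexus RNA, and it passed in none of these (limma adjusted p = 0.427, edgeR adjusted p = 1.0 and 0.946). Aph1b, the alternative scaffold subunit, was at 42.9 ± 6.01 and 43.1 ± 3.40 CPM, and Bace2, a relative of Bace1, was at 4.06 ± 0.60 and 4.08 ± 1.48 CPM. Aph1b was lowest, like App, in untreated replicate 3 (33.7 CPM) and, among treated rats, in replicates 5 and 4 (38.9 and 40.0 CPM). Together with other genes that can cut App, these made a list of 7, of which 5 were higher and 2 lower, down to -0.03 for Rhbdd1, an intramembrane protease (SE 0.20).

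Lists of other genes that act on App and the secretases held 96 entries, these 7 included, of which 92 were in the table and tested. Of the 92, 54 were higher and 38 lower in RG2833, while 46.5% of all genes tested were higher. Among the 92, 0 passed at an adjusted p under 0.05 and 1 had an unadjusted p under 0.05, against the 5.66% of all genes. That gene was Apbb3, whose product binds the cytoplasmic tail of App. It had 28.3, 29.2, 23.5, 26.4 and 26.3 CPM in untreated and 23.0, 21.2, 25.3, 18.2 and 15.9 CPM in RG2833 rats. Of the treated rats, 4 lay below every untreated rat, and RG2833 replicate 3 lay inside the untreated range. The log2 fold change was -0.37 (SE 0.12), with an unadjusted edgeR p of 0.0112 and an adjusted p of 0.841.

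The 13 adaptors of the App tail that were tested had a median log2 fold change of 0.02, 9 higher and 4 lower, up to 0.21 for Apba1 (0.104 without RG2833 replicate 5 and 0.355 without untreated replicate 3). The 24 genes of App and Bace1 trafficking had a median of -0.01, 10 higher and 14 lower. They ran from -0.15 for Gga2, an adaptor of sorting from the Golgi, to 0.28 for Sorcs3, a sorting receptor (SE 0.14, edgeR adjusted p = 0.841). Sorcs3 stood above the untreated mean in all 5 treated rats. Sorcs3 was at 0.409 without untreated replicate 1 and Gga2 at -0.237 without RG2833 replicate 1, both with an unadjusted p under 0.05 (edgeR adjusted p = 0.913 and 0.654). Gga2 was also under 0.05 unadjusted, at -0.206, without the 2 libraries rich in choroid plexus RNA (edgeR adjusted p = 0.946). The 22 regulators of secretases had a median of 0.0024, from -0.29 for Ifitm3 to 0.41 for Gsap, both binding partners of gamma-secretase. Gsap had only 9 to 25 reads per library, and its value was 0.65 without untreated replicate 3 (unadjusted p under 0.05, edgeR adjusted p = 0.333). Ifitm3 turned to 0.0811 without untreated replicate 2.

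The 20 other substrates had a median of 0.02, from -0.12 for Sez6l2, a Bace1 substrate, to 0.22 for the adhesion molecule Cadm1. Sez6l2 ran from -0.0164 without RG2833 replicate 5 to -0.227 without untreated replicate 3, and Cadm1 from 0.15 without untreated replicate 2 to 0.322 without untreated replicate 1 (unadjusted p under 0.05, edgeR adjusted p = 0.913). Notch receptors need gamma-secretase to signal. Of 6 Notch target genes, 5 were higher and 1 lower in RG2833, while 46.5% of all genes tested were higher. The 6 had a median log2 fold change of 0.15, and none had an unadjusted p under 0.05. Heyl had the highest value, 0.38 (SE 0.43), which single libraries moved. It was 0.979 without untreated replicate 3 (edgeR adjusted p = 0.28) and 0.186 without RG2833 replicate 5. In limma-voom with sample weights it was 0.664 (limma adjusted p = 0.43). Both 0.979 and 0.664 had an unadjusted p under 0.05. Heyl was high, at 65.3 to 88.9 CPM, in untreated replicate 3 and RG2833 replicates 4 and 5, and at 20.6 to 39.9 CPM in the other 7 rats. Hes1 was the lower one, at -0.13 (SE 0.10), and it was at -0.0601 without untreated replicate 2 and -0.0824 without RG2833 replicate 5.

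App was set against each of the other 8 genes over the rats. Over the 10 libraries, log2 CPM of App had a Pearson r of 0.80 with Bace1 (permutation p = 0.00542, adjusted p = 0.0434 over 8 pairs; Spearman rho 0.77, adjusted p = 0.0991). Untreated replicate 3 and RG2833 replicate 5 were the libraries farthest from the App median. Without them r was 0.727 over 8 libraries and no longer passed (permutation p = 0.0610, adjusted p = 0.244). Fewer libraries over a narrower range make a pass harder, so this cannot show that the relation rested on those 2. None of the other 7 pairs passed. The r of App was 0.64 with Aplp1, 0.63 with Psen2, 0.45 with Aph1a, 0.44 with Aplp2, 0.23 with Psenen, 0.08 with Ncstn and -0.47 with Adam10. Without the 2 farthest libraries it was 0.56 with Aplp1, 0.14 with Psen2, 0.04 with Aplp2 and -0.71 with Adam10 (permutation p = 0.0294, adjusted p = 0.235). Pairs without App were not tested, and the highest r among them was 0.65, for Aplp2 with Ncstn.

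Outside the 9 genes, App tracked the other Aph1 gene, with a Pearson r of 0.93 with Aph1b (permutation p = 2e-05; rho 0.95, permutation p = 0.00011). With Prnp, the prion protein gene, r was 0.96 (permutation p = 0.00028; rho 0.76, permutation p = 0.0142). With Adam17 r was -0.89 (permutation p = 0.0007; rho -0.83, permutation p = 0.00441). Over all 13 pairs the adjusted permutation p of these 3 was 0.00026 to 0.00303 for r and 0.00143 to 0.0463 for rho. The 3 were chosen after the data were seen, and the adjustment does not cover that choice. Without the 2 farthest libraries r was 0.82, 0.86 and -0.96. Such values were common: 700 of 12160 genes (5.76%) had an r with App of at least 0.9 and 1734 (14.3%) of at least 0.8, while 436 (3.59%) had one of at most -0.9 and 1352 (11.1%) of at most -0.8. Aph1b took place 321 and Prnp place 109 in that order, while Bace1 took place 1734.

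**Figure D4:**
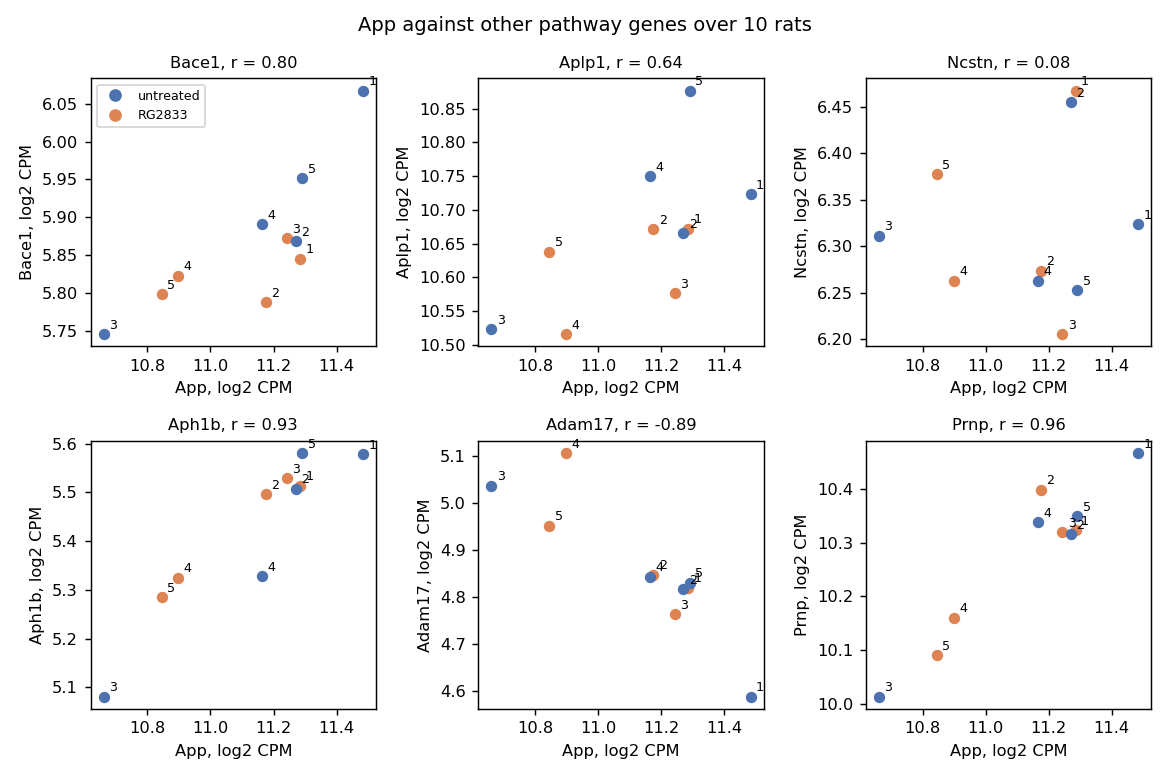
Log2 CPM of App (horizontal) against 5 pathway genes and Prnp (vertical) in 10 rats, coloured by group and labelled with replicate numbers. Aph1b and Prnp rise with App and Adam17 falls, while Ncstn shows no relation; untreated replicate 3 lies at the low end of App.

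The genes most like App over the 10 libraries were Atp6ap1, an accessory subunit of the vacuolar proton pump (r = 0.98), Crygd (0.98), Prepl (0.98), Lurap1l (0.98) and Ube4a (0.98). Those most like Bace1 were Rundc3b (0.95), Lamtor3 (0.93) and Zfp398 (0.92). For Psen2 they were Six4 (0.94), Tnfrsf12a (0.92) and Zbtb37 (0.92), and for Adam10 Asah2 (0.89), Rrm1 (0.89) and Chrdl1 (0.89). All points share library depth and scaling.

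Markers of neurons, microglia and endothelium were at their extremes in the 3 rats lowest in App. The summed CPM of 7 neuronal markers was 3142 in untreated replicate 3, 3624 in RG2833 replicate 4 and 3533 in RG2833 replicate 5. It was 4479 to 5427 in the other 7. The same 3 rats had the highest sums of 7 microglial markers (874, 673 and 695 CPM, against 480 to 576) and of 5 endothelial markers (386, 345 and 418 CPM, against 197 to 270). Sums of 7 astrocyte markers were also high there (7692, 8479 and 8460 CPM), as in RG2833 replicates 2 and 3 (7420 and 7757), against 5276 to 6311 in the other 5. Their mean log2 CPM was 0.29 higher in RG2833 rats, a difference that was not tested. Oligodendrocyte marker sums did not follow App: of the 10 rats, untreated replicate 3 had the lowest (7229 CPM) and RG2833 replicate 5 the highest (15953 CPM). All markers of these lists were detected. RG2833 replicates 5 and 4 also had the lowest ratios of Bace1 to Adam10. Untreated replicate 1, with the highest ratio, had the largest neuronal sum (5427 CPM). Untreated replicate 3, with the smallest neuronal sum, was not among the 3 lowest ratios. Fewer cells of a type and less RNA per cell cannot be told apart in bulk tissue. The part of the marker differences in the spread of App, Aph1b and the Bace1 to Adam10 ratio was not tested.

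Libraries rich in choroid plexus RNA held the highest values of another set. The 8 choroid plexus markers summed to 7763 CPM in untreated replicate 2 and 9103 CPM in RG2833 replicate 1, against 12.9 to 278 CPM in the other 8 libraries. In these 2 libraries Aplp2 stood at 623 and 625 CPM (563 to 596 in the others), Ncstn at 87.6 and 88.4 CPM (73.7 to 83.0) and Psenen at 56.7 and 53.4 CPM (46.2 to 51.8). Thus 3 of the 9 genes were higher there than in each of the other 8 libraries, as were 1005 of all genes tested (8.26%). Adam9, at 66.0 and 70.2 CPM, also did so. Without both libraries the log2 fold change was -0.000202 for Aplp2, -0.0141 for Ncstn and 0.0103 for Psenen. The part of choroid plexus RNA in these levels was not tested.

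The libraries were of similar depth, with 15118203 to 18533520 expected counts each. The hippocampal neuron markers, among them Prox1 and Wfs1, summed to 482, 522 and 564 CPM in the 3 rats lowest in App (untreated replicate 3 and RG2833 replicates 4 and 5) and to 532 CPM in untreated replicate 4. They summed to 741 to 1091 CPM in the other 6. Striatal markers were higher in the same 4 rats, at 84.2, 65.3, 84.1 and 66.4 CPM, against 26.9 to 39.3 CPM in the other 6. Thalamic markers summed to 33.6 to 90.7 CPM, highest in untreated replicate 4. The part of these regional markers in the levels of App was not tested.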

How the data were processed

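Per the labels' protocols, the mRNA libraries kept strand, and there was 1 for each rat. The submitters' processing notes name bcl2fastq 2.17, Bowtie2 2.1.0, RSEM 1.2.15, edgeR and the build rn6, without saying what each was used for; the annotation is not given in the sources used here. The authors deposited RSEM expected counts, which need not be whole (11.6% of values were not), and a TMM-normalized CPM signal. In the authors' CPM signal 100% of values above 0 were whole reads within 0.01, and 100% of these reads equalled the expected counts rounded to the nearest whole number; a fit on them also called 0 genes.

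For the test of treatment, rounded counts went into edgeR 4.0.16 (R 4.3.3): filterByExpr (minimum count 10, minimum total 15), TMM, and the robust quasi-likelihood F test over 12161 genes with Benjamini-Hochberg adjustment and a threshold of 0.05. Standard errors came from the F statistic. CPM use the TMM-scaled library size, and log2 CPM a prior count of 2. The ratios used counts plus 0.5 and two-sided exact permutation tests; correlations used 100000 permutations in scipy. The fits were checked on simulated data. Levels were not compared between genes, since transcript lengths were not used here. No library repeated another: the smallest chi-square per gene over 45 pairs was 7.38, far above the value near 1 of pure sampling noise. Nothing says how rats of a group relate beyond being separate rats.

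The members, lists and tests were chosen with earlier results of these data known. Genes named are the 9 members, 4 further secretase genes, list genes at an unadjusted p under 0.05 or with the largest change in each direction, and those most correlated with App, Bace1, Psen2 and Adam10. Prnp lies outside this rule and was chosen after its values were seen. Sequences come from RefSeq for GRCr8, which differs from the submitters' build and was used for the sequences alone. Alternatives covered normalization, filters, DESeq2 1.42.0, limma-voom (limma 3.58.1) with sample weights, the replicate number as a block, and leaving out libraries. A further gene of the pathway is not reported here.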

Additional observations from a re-analysis of the deposited data

Results flagged for a closer look

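Of 34 sets of 5 values examined, 1 held a rat far from the rest of its group, where chance gives about 1.7. Adam9 in RG2833 replicate 1 stood at 70.2 CPM, while the other 4 treated rats lay from 61.7 to 63.3 CPM, and the gap to the nearest was 0.813 of the group's range, against a limit of 0.71. The same library had 9103 CPM of summed choroid plexus markers. Without it the log2 fold change of Adam9 was 0.1.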

How the results depend on the processing

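For none of the 9 genes or 4 ratios did an alternative give an adjusted p under 0.05. The lowest adjusted p, all without untreated replicate 3, was 0.366 among the genes (Bace1) and 0.265 among the ratios (App to Aplp2, Bace1 to Adam10 and Psen2 to the other subunits). App, Aplp1, Bace1, Psen2, Aph1a and Adam10 kept their direction under all 20 alternatives. Ncstn, near 0, turned to 0.000774 with RLE size factors, 0.000783 without a filter, 0.000139 in DESeq2 and 0.00354 in limma-voom with sample weights. Without the libraries rich in choroid plexus RNA, Aplp2 was -0.000202, Psenen 0.0103 and Aph1b -0.000758. Under limma-voom Bace2 was -0.0461 and Aph1b -0.0275. Over single libraries left out, log2 fold changes ran from -0.0163 to 0.0296 for Aplp2, -0.0421 to 0.0324 for Ncstn and -0.0323 to 0.0445 for Psenen. They ran from -0.134 to 0.083 for Rhbdd1, -0.222 to 0.111 for Bace2, -0.0678 to 0.0494 for Aph1b and -0.459 to 0.0811 for Ifitm3, and the log2 ratio of App to Aplp1 from -0.0744 to 0.0814. The correlation of App with Psenen was -0.0487 and that with Bace1 0.727 without the 2 farthest libraries. DESeq2 called 7 genes. Genes with an unadjusted p under 0.05 numbered 1263 in limma-voom and 375 (without RG2833 replicate 4) to 1732 (without untreated replicate 3) over single libraries left out. The causes were not tested.

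The replicate numbers are not said to pair rats, and same-numbered rats did not deviate together (correlations of -0.49 to -0.03). With the replicate block 0 genes passed, 401 had an unadjusted p under 0.05, and Bace2 was at -0.0387.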
